A study of Homo sapiens with 9 samples.

Results

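The 9 genes described here encode receptor tyrosine kinases that are followed in thyroid cancer: EGFR, ERBB2, ERBB3, MET, RET, AXL, FGFR1, IGF1R and PDGFRB. They were chosen by gene symbol and not by a rule on measured values, but earlier results of these data were known at the time. They are 9 of the 58735 genes, and of the 19951 protein-coding genes, in the deposited table. RNA-seq was performed in KHM-5M, an established human thyroid cancer cell line that the study describes as carrying both a BRAF and a TERT promoter mutation. The cells were kept for 24 h with DMSO, the solvent, with 0.3 μM of YK-4-279 or with 1 μM of YK-4-279, a small-molecule inhibitor of ETS transcription factors. Each of the 3 groups holds 3 samples, 9 in all, and nothing in the labels says whether they came from separate cultures, so that the p-values measure the spread between these samples, which may be technical. A single cell line was sequenced, and each dose was measured at 1 time.

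A receptor tyrosine kinase spans the cell membrane. A ligand outside brings a pair of receptors together, their kinase domains phosphorylate each other inside, and the phosphorylated tyrosines recruit adaptor proteins that start the RAS-MAPK, PI3K-AKT and STAT cascades. Internalization and degradation of the receptor end the signal. In thyroid cancer, RET is known for rearrangements in papillary tumors and for mutations in medullary tumors, which arise from C cells, and EGFR, MET and AXL are known for raised levels and as drug targets.

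The proteins of the ETS family bind DNA around a GGAA core, so the sequence just before the transcription start was searched. The set of RefSeq (GRCh38.p14) promoters used here held 7 of the 9 receptors and had no entry for ERBB3 and FGFR1. The letters GGAA on either strand were found in all 7, between 1 and 5 times in the 250 bases before the start, and in 92.7% of 35116 promoters of the same length, with a median of 3 matches. Shown first are the promoters of the 3 receptors whose transcripts passed the test described below, with each GGAA, or TTCC where it lies on the other strand, in capitals. EGFR (chr7, plus strand, chr7:55018767-55019016) holds 1 match, MET (plus strand, chr7:116671946-116672195) holds 4, and PDGFRB (minus strand, chr5:150155873-150156095) holds 5 and is printed up to 28 bases before its start. The longer motif CCGGAAGT, whose letters contain both CCGGAA and GGAA, was found in ERBB2 alone among the 7, against 3.42% of all promoters. It occurs there on both strands (plus strand, chr17:39688060-39688089), and both matches are in capitals, the first read as ACTTCCGG. The start that RefSeq gives for ERBB2 lies 180 bases inside the gene as deposited, so this stretch is before the RefSeq start but within the deposited gene. These are matches of letters, not binding sites.
EGFR: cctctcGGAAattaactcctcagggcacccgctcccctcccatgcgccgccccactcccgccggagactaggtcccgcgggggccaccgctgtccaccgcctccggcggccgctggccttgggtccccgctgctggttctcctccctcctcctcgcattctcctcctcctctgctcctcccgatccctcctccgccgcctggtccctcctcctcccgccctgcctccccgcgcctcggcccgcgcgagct
MET: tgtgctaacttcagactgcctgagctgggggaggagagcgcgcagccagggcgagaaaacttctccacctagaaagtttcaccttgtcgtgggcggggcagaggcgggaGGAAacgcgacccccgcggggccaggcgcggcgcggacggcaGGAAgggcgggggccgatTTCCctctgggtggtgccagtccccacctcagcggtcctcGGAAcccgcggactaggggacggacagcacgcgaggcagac
PDGFRB: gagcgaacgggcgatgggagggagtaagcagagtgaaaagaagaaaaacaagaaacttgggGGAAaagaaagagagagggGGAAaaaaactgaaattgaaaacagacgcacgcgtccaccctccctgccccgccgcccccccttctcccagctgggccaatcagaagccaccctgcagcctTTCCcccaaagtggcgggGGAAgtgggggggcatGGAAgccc
ERBB2: agcttccACTTCCGGagtaaCCGGAAGTtc
The shorter CCGGAA was found in 14.5% of all promoters and, of these 7, again in ERBB2 alone. TATAAA was in none of the 7 and in 10.7% of all promoters, and GGGCGG, the core of a GC box, was in 6 of the 7 and in 42.6% of all.

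Library totals ran from 16903251 to 18238884 counts, so that 0 counts allow up to 3 counts, or 0.164 to 0.177 CPM (the count scaled to the library size); this covers counting error only. Every pair of samples within a group differed by more than sampling noise (9 pairs, chi-square per degree of freedom 3.39 to 11.8). The labelled cell type was checked against marker genes. Of 10 genes of thyroid follicular cells, PAX8 alone reached 1 FPKM (the count scaled to gene length and library size) in DMSO, at 22.8 ± 0.774 (SD, n = 3), while TSHR had 0 counts and TG and SLC5A5 at most 2 and 1. Of 6 C-cell genes none reached 1 FPKM. Of 6 epithelial genes 5 did, KRT8 and KRT18 highest, while the epithelial cadherin CDH1 had at most 5 counts. None of 5 endothelial and 6 leukocyte genes reached 1 FPKM in DMSO, and the leukocyte gene CD14 went from 8 to 21 counts there to 30 to 37 at 1 μM. TIE1, a receptor kinase best known from endothelial cells, was not on that list of 5. It had 18.6 ± 1.75 FPKM in DMSO (SD, n = 3), so the endothelial list does not cover every such gene.

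KHM-5M cells transcribed 8 of the 9 receptors, and AXL stood far above the rest. FPKM divides by gene length, so levels in FPKM can be set side by side between genes, as far as the deposited length fits the transcripts in these cells. In the DMSO samples AXL, the receptor for the vitamin K-dependent ligand GAS6, had 238.8, 199.1 and 229.0 FPKM, a mean of 222.3 ± 20.7 (SD, n = 3), which placed it at rank 118 of 19951 protein-coding genes. MET, the receptor of hepatocyte growth factor, followed with 26.5 ± 1.33 FPKM at rank 1548, so that the mean of AXL was 8.40 times as high. EGFR came next with 15.3 ± 0.499 FPKM at rank 2817. The samples of AXL, MET and EGFR did not overlap one another, nor did those of EGFR and any receptor below it.

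Below them lay ERBB2, FGFR1 and PDGFRB. ERBB2, the ErbB receptor without a ligand of its own, had 8.42 ± 0.944 FPKM, the fibroblast growth factor receptor FGFR1 had 7.88 ± 0.586 FPKM, and PDGFRB, the receptor for platelet-derived growth factor B, had 6.89 ± 0.483 FPKM. ERBB2 overlapped FGFR1 and FGFR1 overlapped PDGFRB, whereas all samples of ERBB2 lay above those of PDGFRB. IGF1R, the insulin-like growth factor receptor, had 3.17 ± 0.0733 FPKM, apart from its neighbors on both sides. ERBB3, which binds neuregulins but has little kinase activity of its own, had 1.75 ± 0.171 FPKM. RET was the exception. It had 0, 0 and 1 counts in DMSO, 0, 3 and 0 at 0.3 μM and 1, 2 and 0 at 1 μM, at or under the limit that a count of 0 allows in every sample, so no fold change is given and RET was not tested.

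The place of EGFR, ERBB2 and FGFR1 in this order depended on the gene length. The deposited length is 2.26 times that of the representative (MANE) transcript for ERBB2, 2.43 times for FGFR1 and 1.26 times for EGFR. Rescaled to the MANE length, an alternative added after the values were seen, the DMSO levels were 19.3 ± 0.631 for EGFR, 19.2 ± 1.42 for FGFR1 and 19.1 ± 2.14 for ERBB2 (SD, n = 3), and their samples overlapped. AXL, at 242.9 ± 22.6, and MET, at 27.3 ± 1.37, still lay above them, and PDGFRB, at 8.62 ± 0.605, lay below, without overlap. The length that a count is divided by cancels in the fold change of a gene between groups. A share of summed FPKM, as given for AXL below, depends on the length used.

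**Figure D1:**
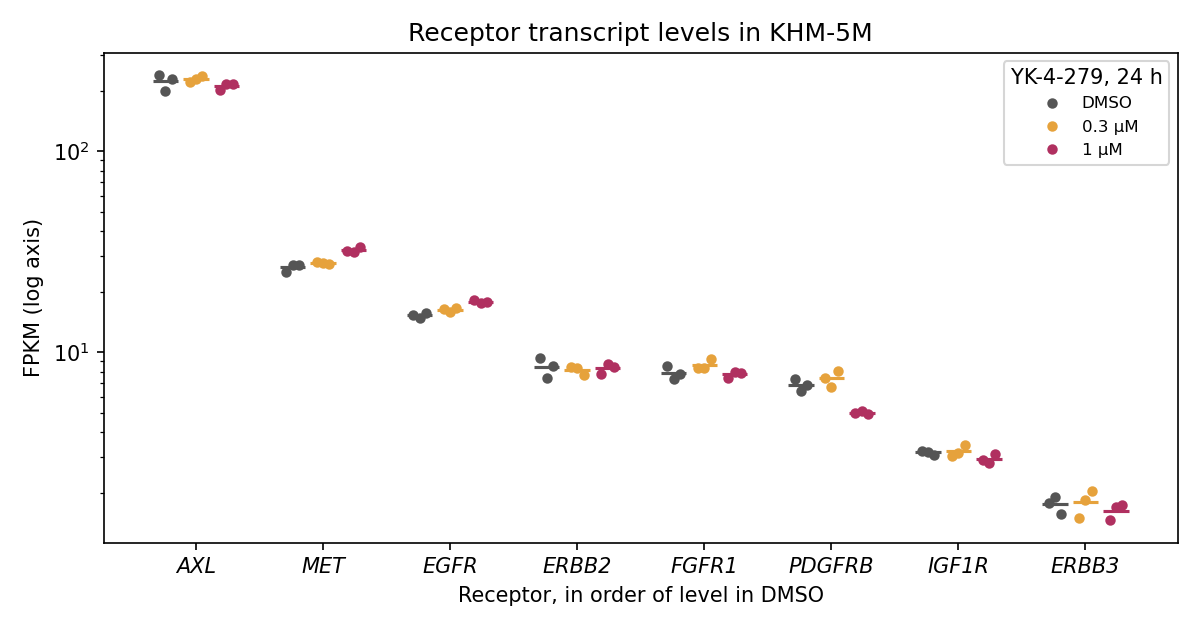
Transcript level of 8 receptors in FPKM (log axis), in order of their mean in DMSO, with a point for each sample and a line for the mean of each group of 3 samples (gray DMSO, orange 0.3 μM, red 1 μM of YK-4-279). AXL lies between 199.1 and 238.8 FPKM in all 9 samples, far above MET and EGFR. RET, with at most 3 counts in any sample, is not drawn.

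AXL also led the whole receptor class by the deposited lengths. Among 58 receptor tyrosine kinases, these 9 and 49 others, AXL ranked 1st, MET 3rd, EGFR 6th, ERBB2 9th, FGFR1 10th, PDGFRB 11th, IGF1R 16th, ERBB3 19th and RET 51st in DMSO. At least 1 FPKM was reached by 23 of the 58, which were 8 of these 9 and 15 of the 49 others. AXL alone held 51.8 ± 1.00% (SD, n = 3) of the summed FPKM of the 58. The share was 50.6 ± 1.07% at 0.3 μM and 48.4 ± 0.870% at 1 μM, a difference of -3.41 percentage points between 1 μM and DMSO. The exact two-sided permutation test gave p = 0.1, the smallest value that 3 against 3 samples allow, and p = 0.2 for 0.3 μM against DMSO.

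The position and the neighbors of each gene bear on its counts. All coordinates are on GRCh38 as deposited, and the exon numbers are those of the MANE transcript. Shared exon bases were counted over the exons of all annotated transcripts of both genes, not over the MANE transcript alone. EGFR (ENSG00000146648) lies on chr7:55019021-55211628, plus strand, with 28 exons, and MET (ENSG00000105976) on chr7:116672390-116798386, plus strand, with 21 exons. PDGFRB (ENSG00000113721) lies on chr5:150113837-150155872, minus strand, with 23 exons. AXL (ENSG00000167601) lies on chr19:41219203-41261766 with 20 exons and RET (ENSG00000165731) on chr10:43077027-43130351 with 20 exons, both on the plus strand. ERBB2 (ENSG00000141736, chr17:39687914-39730426, 27 exons), ERBB3 (ENSG00000065361, chr12:56076799-56103505, 28 exons) and IGF1R (ENSG00000140443, chr15:98648539-98964530, 21 exons) are on the plus strand too. FGFR1 (ENSG00000077782, chr8:38400215-38468834, 18 exons) is on the minus strand. MET, RET and PDGFRB overlapped no other listed gene. ERBB2 shares 571 exon bases with MIEN1 and 144 with PGAP3, both on the opposite strand, whose counts came to 20.6% and 16.0% of those of ERBB2. FGFR1 shares 138 exon bases with LETM2 and 387 with AC087623.1, both on the opposite strand, at 6.15% and 0.671% of its counts. EGFR shares 186 with EGFR-AS1 and AXL 67 with AC011510.1, also opposite, at 0.539% and 0.163%. ERBB3 shares 31 with AC034102.2, which had 0 counts. The percentages count the whole neighbor, not the shared bases. Whether strand was used in counting is not given in the sources used here, so reads from these shared bases cannot be told apart. The values of ERBB2, FGFR1, EGFR, AXL and ERBB3 are uncertain to an extent that was not measured.

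What YK-4-279 at 1 μM did to the receptors was asked first. EGFR and MET were higher than in DMSO by 1.15-fold and 1.21-fold, and PDGFRB was lower, at 0.719 of its DMSO level. The other 5 receptors tested, AXL, ERBB2, ERBB3, FGFR1 and IGF1R, did not pass. A gene passed at an adjusted p under 0.05 (edgeR quasi-likelihood test, Benjamini-Hochberg adjustment over all genes tested). Of the 8 receptors tested, 3 passed, where 17.6% of all 15617 genes did; 2 were higher, against 7.67% of all genes, and 1 was lower, against 9.95%. The median log2 fold change of the 8 receptors was -0.07, and that of all genes was -0.01. None of the 8 passed this test with a change over 1.5-fold as well, the fold cutoff of the study, as 3.91% of 12900 protein-coding genes did. The study applied that cutoff with its own DESeq2 P-values, so this share is not the study's. In bulk RNA, fewer cells with a transcript and less of it per cell cannot be told apart.

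PDGFRB changed most. It had 7.37, 6.40 and 6.88 FPKM in DMSO, 7.46, 6.68 and 8.10 FPKM at 0.3 μM and 5.01, 5.08 and 4.93 FPKM at 1 μM. Every sample at 1 μM lay below every other sample, and the 3 values at 1 μM were closer to each other (SD 0.0775) than those of the other groups (SD 0.483 and 0.711). This difference in spread rests on 3 values in each group and was not tested. These values rest on 829 to 911 counts in DMSO, 865 to 1012 at 0.3 μM and 595 to 657 at 1 μM. PDGFRB fell by 0.48 on the log2 scale at 1 μM against DMSO (SE 0.0750, 95% interval -0.64 to -0.32, edgeR adjusted p = 0.000773), and the call held in every alternative fit.

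PDGFRB is best known from mesenchymal cells, fibroblasts and pericytes, so the fibroblast markers are given beside it. Of 8 such markers 3 reached 1 FPKM in DMSO. COL1A1, the main collagen of connective tissue, had 47.8 ± 8.53 FPKM in DMSO and 36.4 ± 3.10 FPKM at 1 μM, a log2 fold change of -0.41 (edgeR adjusted p = 0.0132), although its samples overlapped. The other markers at that level did not pass, THY1 with 7.95 ± 0.216 FPKM in DMSO and 8.01 ± 0.674 at 1 μM, and LUM with 3.12 ± 0.342 and 3.98 ± 0.627 FPKM. The defining fibroblast genes COL1A2, COL3A1 and DCN were at or near 0, with at most 7, 1 and 4 counts in DMSO, and PDGFRA, also on the list, was higher at 1 μM as given below. Of the 5 markers tested 1 was higher and 1 lower, with a median log2 fold change of 0.33. The summed FPKM of the list, most of it COL1A1, was 50.6 to 67.3 in DMSO, 44.1 to 62.5 at 0.3 μM and 46.4 to 52.5 at 1 μM, and its part in the result of PDGFRB was not tested.

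MET had 24.9, 27.2 and 27.3 FPKM in DMSO, 28.1, 27.9 and 27.4 at 0.3 μM and 32.0, 31.6 and 33.4 at 1 μM. All samples at 1 μM lay above all others. At 1 μM the log2 level of MET was higher by 0.27 (SE 0.0569, 95% interval 0.15 to 0.39, edgeR adjusted p = 0.00499), from 3040 to 3469 counts in DMSO to at most 4147, and this call too held in every alternative fit.

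EGFR had 15.3, 14.7 and 15.7 FPKM in DMSO, 16.3, 15.9 and 16.5 at 0.3 μM and 18.1, 17.5 and 17.7 at 1 μM. The 3 groups did not overlap, with DMSO lowest and 1 μM highest. At 1 μM the log2 level of EGFR was higher by 0.20 (SE 0.0536, 95% interval 0.09 to 0.32, edgeR adjusted p = 0.0172). The call did not hold in every alternative: the edgeR adjusted p was 0.0574 without the first sample at 1 μM and 0.0633 without the last.

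**Figure D2:**
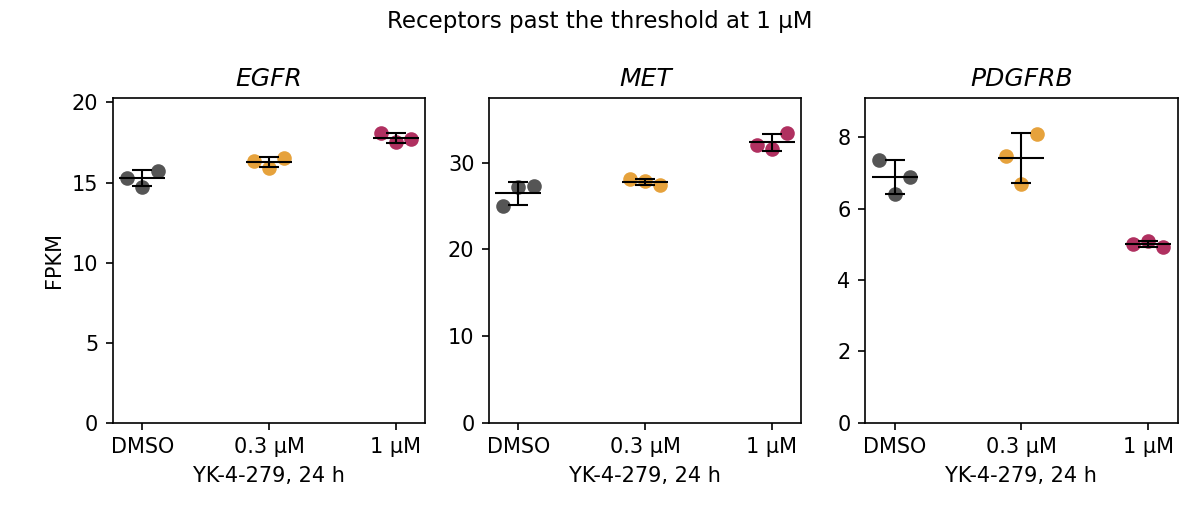
FPKM of EGFR, MET and PDGFRB in each sample (points) with the mean and SD of the 3 samples of each group, on axes that start at 0. The samples at 1 μM of YK-4-279 lie above all others for EGFR (17.5 to 18.1) and MET (31.6 to 33.4) and below all others for PDGFRB (4.93 to 5.08).

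Since MET and EGFR were higher and PDGFRB lower, their proportions shifted within the samples; this ratio was chosen after the values were seen. The ratio of MET to PDGFRB in FPKM was 3.86 ± 0.439 in DMSO, 3.77 ± 0.393 at 0.3 μM and 6.47 ± 0.292 at 1 μM (SD, n = 3). The ratio of EGFR to PDGFRB was 2.22 ± 0.125, 2.20 ± 0.172 and 3.56 ± 0.0940. The ratio of MET to EGFR ranged from 1.63 to 1.88 over the 9 samples.

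The most abundant receptor, AXL, had 201.1, 216.7 and 214.8 FPKM at 1 μM, within the range of the DMSO samples. Its log2 fold change was -0.09 (SE 0.0666, 95% interval -0.24 to 0.05, edgeR adjusted p = 0.363), so a decline to 0.849 of its level lies within the interval. The value moved with single libraries. Without the second DMSO sample, whose 199.1 FPKM was the lowest of all 9, the log2 fold change of AXL was -0.16 with an edgeR adjusted p of 0.0365. It was -0.03 (adjusted p = 0.777) without the first DMSO sample and -0.05 (adjusted p = 0.696) without the first sample at 1 μM.

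The ErbB partners of EGFR did not pass the test. ERBB2 had 9.30, 7.43 and 8.53 FPKM in DMSO and 7.78, 8.77 and 8.42 at 1 μM, with a log2 fold change of -0.03 (95% interval -0.21 to 0.14) whose sign turned when the first DMSO sample or the first sample at 1 μM was left out. ERBB3 had 1.78, 1.91 and 1.57 FPKM in DMSO and 1.46, 1.69 and 1.73 at 1 μM. Its log2 fold change was -0.13 (95% interval -0.37 to 0.11), the widest interval of the 8 receptors, from 242 to 313 counts in DMSO. The edgeR adjusted p-values were 0.822 for ERBB2 and 0.463 for ERBB3.

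FGFR1 had 8.51, 7.35 and 7.79 FPKM in DMSO and 7.46, 7.93 and 7.87 at 1 μM, which overlapped (log2 fold change -0.04, 95% interval -0.18 to 0.10; 0.02 without the first DMSO sample). IGF1R had 3.23, 3.19 and 3.09 FPKM in DMSO and 2.90, 2.80 and 3.12 at 1 μM, overlapping in a single sample (log2 fold change -0.12, 95% interval -0.28 to 0.03). The edgeR adjusted p-values were 0.717 for FGFR1 and 0.260 for IGF1R. In all, 3 of the 8 receptors had DMSO and 1 μM samples that did not overlap, where 37.4% of all genes tested did.

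At 0.3 μM none of the 8 receptors passed, and 0% of 15762 genes did, by edgeR. No receptor had an unadjusted p under 0.05 either, where 594 genes (3.77%) did, and none passed in DESeq2. Both doses were set against the same DMSO samples, so their fold changes are not independent. The log2 fold change at 0.3 μM was 0.09 for EGFR (95% interval -0.05 to 0.23), 0.07 for MET (-0.07 to 0.21) and 0.11 for PDGFRB (-0.09 to 0.30). For PDGFRB this interval lay wholly above the one at 1 μM, while for EGFR and MET the intervals at the 2 doses overlapped. The other receptors lay between -0.05 for ERBB2 and 0.13 for FGFR1. EGFR and MET were the 2 receptors whose samples at 0.3 μM all lay above those in DMSO, which 8.47% of genes did in either direction.

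The 2 doses were also compared directly, without the DMSO samples. MET and PDGFRB passed, 2 of 8 receptors, where 12.6% of 15583 genes did, 5.85% higher and 6.75% lower at 1 μM. PDGFRB fell by 0.57 on the log2 scale from 0.3 to 1 μM (SE 0.0825, 95% interval -0.74 to -0.40, edgeR adjusted p = 0.000361). MET rose by 0.22 (SE 0.0567, 95% interval 0.10 to 0.34, edgeR adjusted p = 0.0198), a call that was lost without the second sample at 0.3 μM (adjusted p = 0.0557) and without the first or the last sample at 1 μM (0.0525 and 0.115). EGFR had a log2 fold change of 0.13 (95% interval 0.01 to 0.24) that did not pass (edgeR adjusted p = 0.150).

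Lower values at 1 μM than at 0.3 μM were also seen for AXL and FGFR1, without passing. AXL had 220.1, 227.6 and 237.4 FPKM at 0.3 μM, all above the samples at 1 μM (log2 fold change -0.12, 95% interval -0.23 to -0.01, edgeR adjusted p = 0.155). FGFR1 had 8.33, 8.29 and 9.24 FPKM at 0.3 μM, likewise above those at 1 μM (log2 fold change -0.16, 95% interval -0.30 to -0.02, edgeR adjusted p = 0.130). With EGFR, MET and PDGFRB that makes 5 of 8 receptors whose samples at the 2 doses did not overlap, where 31.9% of genes did. IGF1R, ERBB2 and ERBB3 overlapped.

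**Figure D3:**
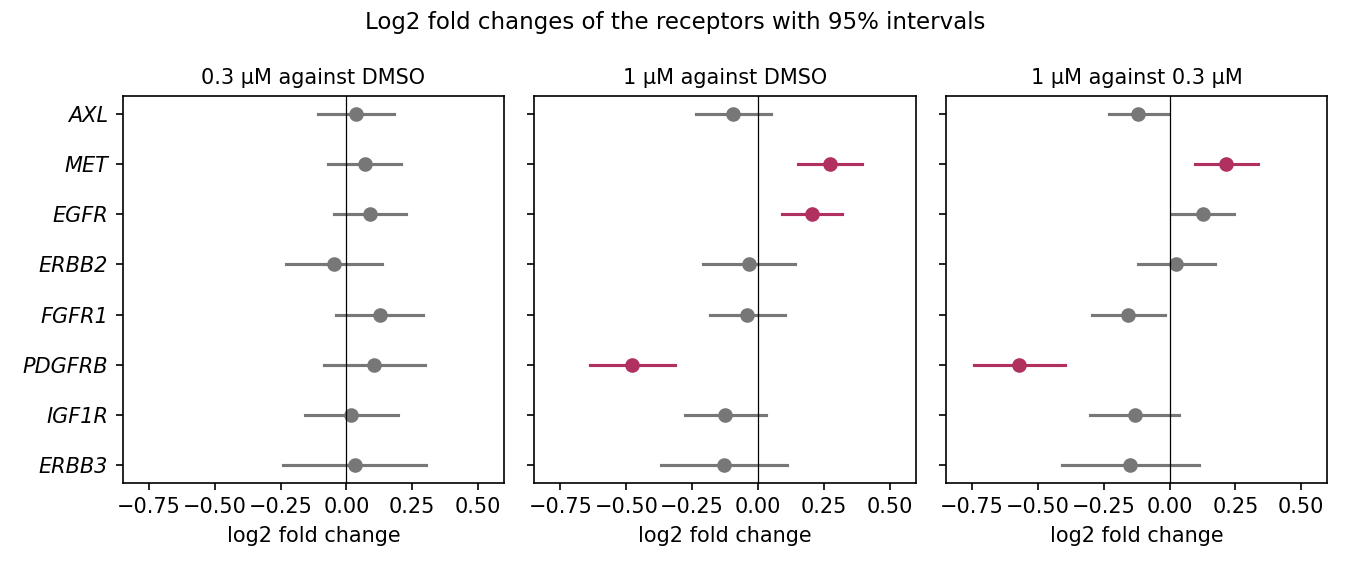
Log2 fold change of 8 receptors with its 95% interval in 3 panels, for each dose of YK-4-279 against DMSO and for the higher dose against the lower (edgeR; 3 samples in each group). Red marks an adjusted p under 0.05, which none had at 0.3 μM against DMSO, EGFR, MET and PDGFRB had at 1 μM against DMSO, and MET and PDGFRB had between the doses.

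The genes whose level over the 9 samples was most like that of a receptor were found by the root mean square difference in log2 CPM, each gene centered on its own mean, among 12296 protein-coding genes. The nearest to EGFR were PTDSS1, a phosphatidylserine synthase (0.0260), and RNF4, a SUMO-targeted ubiquitin ligase (0.0274), where the median over all candidates was 0.151. Of the genes nearest to MET, KCTD20 is given (0.0325, median 0.174). The nearest to PDGFRB were LMBR1L (0.0566) and ADGRB2, an adhesion G protein-coupled receptor (0.0575, median 0.294).

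The rest of the signaling system was read from the same fit at 1 μM. Of the 49 other receptor tyrosine kinases, 26 were tested and 3 passed, all higher (11.5%, where 17.6% of all genes passed and 7.67% were higher), with a median log2 fold change of 0.03; 5 passed without the second DMSO sample and 1 without the second sample at 1 μM. EPHA2, an ephrin receptor, rose from 29.2 ± 2.35 to 40.8 ± 2.08 FPKM (log2 0.47, edgeR adjusted p = 0.000460), and EPHB2 rose by 0.21 on the log2 scale. PDGFRA, the closest relative of PDGFRB, moved in the opposite direction, with between 3 and 11 counts in DMSO and between 24 and 29 at 1 μM (log2 1.62, edgeR adjusted p = 0.0159). It remained rare, at a mean of 0.155 FPKM, and 1 of its DMSO samples lay at the 3 counts that a count of 0 allows.

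Of 32 ligands, 14 reached 1 FPKM in DMSO and 6 had 0 counts in all 3 DMSO samples. Of the 22 tested, 4 passed, 3 higher and 1 lower (18.2%, against 17.6% of all genes), with a median of 0.11, and 2 passed without the first DMSO sample or without the first or second sample at 1 μM. The passing ligands of EGFR were EREG (epiregulin) and HBEGF (heparin-binding EGF-like growth factor). EREG had between 54 and 63 counts in DMSO and between 138 and 189 at 1 μM, a 2.70-fold rise (log2 1.43, SE 0.161, edgeR adjusted p = 6.17e-05). HBEGF rose from 5.51 ± 0.336 to 8.21 ± 0.439 FPKM (log2 0.56, SE 0.0912, edgeR adjusted p = 0.000992). Both stood apart from DMSO in all 3 samples at 1 μM. AREG (amphiregulin), a further EGFR ligand, had between 13 and 35 counts in DMSO, between 33 and 49 at 1 μM, and did not pass (edgeR adjusted p = 0.0963). The other EGFR ligands, also outside the rule on named genes, were not among those that passed. EGF had between 28 and 42 counts in DMSO and between 23 and 52 at 1 μM. BTC had between 9 and 21, then between 13 and 17, and TGFA between 6 and 8, then between 12 and 14. EPGN had at most 2 counts in either group. PDGFB, the main ligand of PDGFRB, rose from 2.05 ± 0.128 to 2.70 ± 0.185 FPKM (log2 0.38, edgeR adjusted p = 0.0495), close to the threshold. FGF1, which binds FGFR1, fell by 0.34 on the log2 scale (edgeR adjusted p = 0.0407).

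The ligands of the 2 most abundant receptors, chosen here for their receptors and outside the rule on named genes, differed in level. GAS6, the ligand of AXL, had 34.8 ± 3.0 FPKM in DMSO and 33.8 ± 1.29 at 1 μM, with a log2 fold change of -0.06 (95% interval -0.20 to 0.09) that did not pass. HGF, the ligand of MET, had 0 counts in every sample of DMSO and 0.3 μM and at most 1 count at 1 μM. GDNF, which acts through RET, had 3.58 ± 0.169 FPKM in DMSO while RET itself was near 0.

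Of 17 co-receptors and binding proteins 13 were tested and 4 passed, 2 in each direction (30.8%, against 17.6% of all genes), with a median of 0.01. SDC4, a heparan sulfate proteoglycan that holds growth factors at the surface, rose by 0.37 on the log2 scale (edgeR adjusted p = 0.000478), and IGF2R, which clears IGF2, rose by 0.25. The insulin-like growth factor binding proteins IGFBP5 and IGFBP3 fell by 0.48 and by 0.34 on the log2 scale (edgeR adjusted p = 0.0127 and 0.00338), while IGF1R did not pass and IGF1 and IGF2 had at most 4 counts in the DMSO and 1 μM samples.

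Of 23 adaptors all were tested and 7 passed, 5 higher and 2 lower (30.4%, against 17.6% of all genes), with a median of 0.05, and 4 passed without the third DMSO sample. CRK rose by 0.39, FRS2, which couples FGF receptors to RAS, by 0.34 and GRB10, an inhibitory adaptor of the insulin receptor family, by 0.29 on the log2 scale. IRS1, the docking protein of IGF1R, fell by 0.33 (edgeR adjusted p = 0.00685), and PLCG1, the phospholipase that receptors activate, fell by 0.22. Of 29 genes of receptor turnover and restraint 28 were tested and 3 passed, all higher (10.7%, against 17.6% of all genes and 7.67% higher), with a median of 0.05. LRIG1, which promotes the degradation of ErbB receptors and MET, rose by 0.51 (edgeR adjusted p = 0.00657), the chaperone HSP90AA1 by 0.22 and SH3KBP1, which links CBL to endocytosis, by 0.18. Of 21 genes of the RAS-MAPK, PI3K-AKT and STAT cascades 20 were tested and 4 passed, 3 higher and 1 lower (20%, against 17.6%), with a median of 0.06. NRAS rose by 0.41 (edgeR adjusted p = 0.000601), STAT3 by 0.30 and PIK3R1, the regulatory subunit of PI3K, by 0.23, and AKT2 fell by 0.26. At 0.3 μM no gene of these 6 lists passed. Between the doses, where 12.6% of all genes passed, 2 of 26 other receptors did (7.69%), 4 of 22 ligands (18.2%), 2 of 13 co-receptors (15.4%), 5 of 23 adaptors (21.7%), 2 of 28 turnover genes (7.14%) and 3 of 20 cascade genes (15%).

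**Figure D4:**
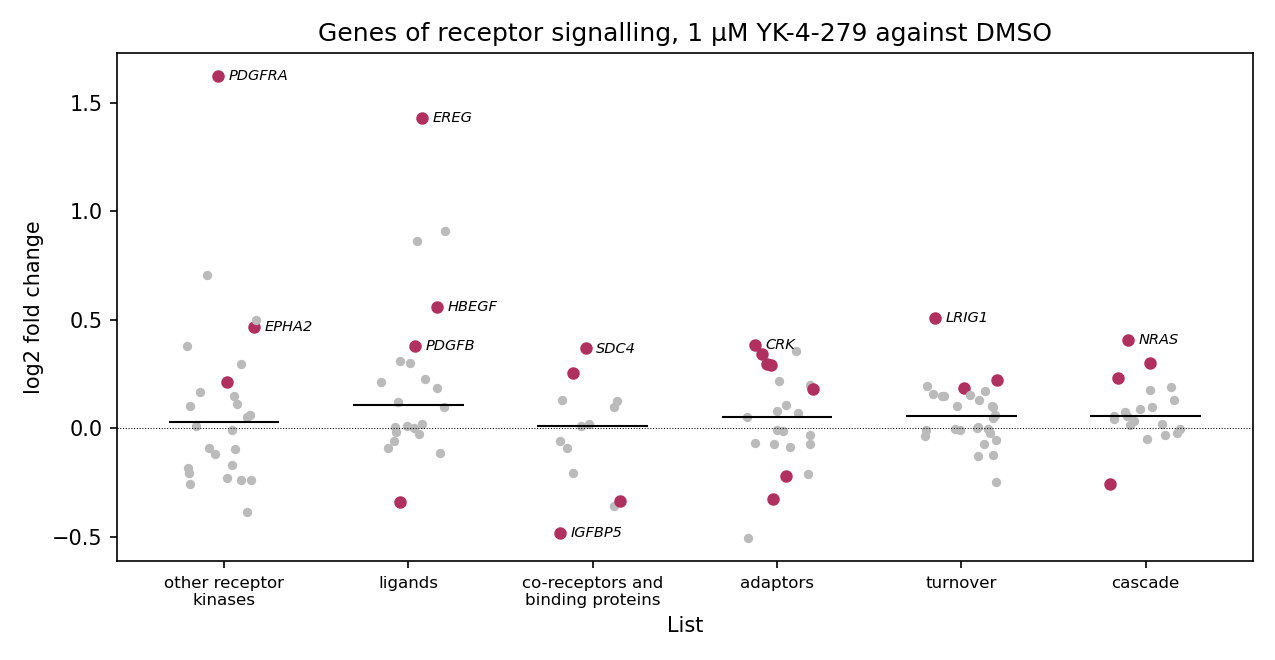
Log2 fold change at 1 μM of YK-4-279 against DMSO for each tested gene of 6 lists of the receptor signaling system (edgeR; points), with a line at the median of each list and red for an adjusted p under 0.05. Medians lie between 0.01 and 0.11, and the passing genes farthest from 0 are PDGFRA (1.62) and EREG (1.43).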

How the data were processed

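RNA-seq libraries of 9 KHM-5M samples were analysed from a gene table deposited by the authors. Per the labels, poly(A) RNA was purified from total RNA, and the submitters' processing notes name HISAT2 2.0.5, featureCounts 1.5.0-p3 and DESeq2 1.20.0; the study's methods name HTseq for counting and a stranded kit, so the counter and the use of strand are uncertain. The methods describe 2 biological replicates and the labels give 3 samples per group, and all 3 were used. The authors deposited whole-number read counts per gene without normalization, and FPKM values, which scale each count by gene length and library size. They also deposited fold changes and p-values from their own comparisons, which were not used.

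Counts were tested with edgeR 4.0.16 in R 4.3.3 (TMM, filterByExpr with a minimum count of 10, glmQLFit and glmQLFTest on the groups compared), with Benjamini-Hochberg adjustment over all genes tested. SEs were taken as the log2 fold change divided by the square root of F, and 95% intervals from the t distribution with the fit's degrees of freedom. Alternatives were DESeq2 1.42.0, RLE size factors, a filter at a minimum count of 1, a joint fit of all 9 samples, a replicate block, leaving out each sample, the unadjusted p and a 1.5-fold cutoff. Corrections for trends with GC content and gene length (lowess, span 0.3) and levels over the MANE transcript length were added after seeing the data. The steps were tested on simulated data. Figures were drawn with Python 3.11.15 and matplotlib 3.10.9.

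The genes named are the 9 receptors, at most 3 genes from each end of the passing genes of each list at a mean of at least 1 CPM, the 2 genes nearest in profile to each passing receptor, and markers; exceptions are stated in the text, AREG among them, and some values are not reported here. The receptors and the lists were chosen with earlier results of these data known. Promoter sequences are from RefSeq (GRCh38.p14); protein sequences were not used here.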

Additional observations from a re-analysis of the deposited data

How the results depend on the processing

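The 24 log2 fold changes of the receptors gave 312 values under the alternatives, of which 295 kept their direction and their side of the threshold. The 10 that turned in direction were at most 0.072 in size, of receptors that did not pass, and each came from leaving out a sample. At 1 μM against DMSO, ERBB2 ran from -0.11 to 0.050 over these fits (0.022 without the first sample at 1 μM) and FGFR1 from -0.083 to 0.022. At 0.3 μM against DMSO, ERBB2 ran from -0.13 to 0.032, AXL from -0.034 to 0.093, ERBB3 from -0.072 to 0.15 (-0.041 without the third DMSO sample) and IGF1R from -0.033 to 0.055. Between the doses ERBB2 ran from -0.023 to 0.073 (-0.0094 without the second sample at 1 μM). The adjusted p over the alternatives, DESeq2 included, ran from 0.00260 to 0.0633 for EGFR, from 8.30e-05 to 0.0346 for MET and from 7.00e-06 to 0.00613 for PDGFRB at 1 μM. A 1.5-fold cutoff left 0 receptors at 1 μM and 0 between the doses, where 5 had an unadjusted p under 0.05. Leaving out a sample gave 2 to 4 passing receptors at 1 μM, 0 to 0 at 0.3 μM and 1 to 2 between the doses, 1 to 5 other receptors, 2 to 4 ligands, 3 to 5 co-receptors, 4 to 8 adaptors, 2 to 4 turnover genes and 3 to 5 cascade genes. The ligands were 2 without the first DMSO sample and without the first or second sample at 1 μM, the other receptors 5 without the second DMSO sample and 1 without the second sample at 1 μM, and the adaptors 4 without the third DMSO sample. Over the MANE length the DMSO level moved to 19.3 for EGFR, 19.1 for ERBB2, 2.82 for ERBB3, 19.2 for FGFR1, 3.61 for IGF1R and 8.62 for PDGFRB. With the GC trend corrected 5 turnover genes passed. The causes were not tested. Samples with the same number correlated weakly at most (r from -0.0217 to 0.0817, against -0.0692 to 0.0376 for different numbers). Of the 9 samples, 7 correlated best with their own number. No r reached the 0.1 set beforehand for pairs, so the numbers were not taken as pairs, though a weak shared deviation may be present. With the replicate block EGFR did not pass (adjusted p = 0.0526), 2 ligands did, and 2120 of all genes passed at 1 μM against 2752 without it. All-gene counts at 1 μM ran from 1683 (without the third DMSO sample) to 3696 (GC trend corrected, 1846 higher and 1850 lower, against 1198 and 1554). At this depth a change of RET between groups could not be assessed.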
